A study of Mus musculus with 4 samples.

Results

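The long noncoding RNAs described here are *Neat1*, *Malat1*, *Meg3*, *Gas5*, *H19* and *Miat*, which are abundant in the nucleus, imprinted, or hosts of small RNAs, and are frequently named in studies of hypoxia. Their probes were taken by gene name from the non-control spots of 4 one-color arrays, and each probe is given by itself with its position. By this rule 9 of 39429 non-control probes were found, for 5 of the 6 genes. *Neat1*, *Malat1* and *H19* had 1 probe each, *Meg3* and *Gas5* had 3 probes each, and no probe carried the name *Miat*, so that no value is given for it. All 9 probes were marked as well above background on all 4 arrays and none was saturated.

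The cells were astrocyte-enriched cultures (AECs), that is, mixed glia from the cortex of newborn ICR mice of either sex from which PLX3397, a blocker of the receptor CSF1R that microglia need to live, had taken most microglia out. Untreated AECs (n = 2) were compared with AECs kept for 15 h under oxygen–glucose deprivation (OGD), a culture model of ischemia without glucose and under hypoxia (n = 2), and the PLX3397 treatment is common to both groups. Each culture comes from several pups and other glia remain in it. The methods say in general that wells were seeded from separate cultures made from different pups, but not of the array samples by name, so that p-values measure the spread between these samples, which may be in part technical. All arrays lay on the same slide and were read in the same scan. The share of non-control spots well above background was 73.7% and 73.0% without treatment and 66.2% and 64.5% with OGD, and the 75th percentile of the processed signal was 2135 and 2164 against 887 and 776. Since each array was set to its own 75th percentile, a log2 fold change of 0 stands for a fall of the processed signal by 1.37 on the log2 scale.

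*Neat1* is the scaffold of paraspeckles, nuclear bodies that hold RNA-binding proteins, and its neighbor *Malat1* is a component of nuclear speckles, where splicing factors collect. *Meg3* is transcribed from the maternal chromosome at the *Dlk1*–*Dio3* imprinted locus, and *H19* from the maternal chromosome beside the paternally expressed growth factor gene *Igf2*. *Gas5* carries small nucleolar RNAs (snoRNAs) in its introns, and its spliced RNA, which begins like a ribosomal protein mRNA with a run of pyrimidines, is broken down by nonsense-mediated decay when it is translated. *Neat1* is a known target of hypoxia-inducible factors, and *Meg3* and *Malat1* are known for changes in ischemic brain tissue.

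The probes are 60 bases long, and 8 of the 9 are shown because they fix which stretch of each RNA was read. They were copied from the scanner files and are written 5′ to 3′, with positions on mm9, and capitals mark AATAAA or ATTAAA, the common poly(A) signal hexamers, wherever they occur in a probe. Exon maps of mm9 were not used here.
*Neat1*, A_51_P234692, chr19:5842564-5842623, minus strand, base 2857 onward of NR_003513: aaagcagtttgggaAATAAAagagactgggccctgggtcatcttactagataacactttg
*Malat1*, A_55_P2021187, chr19:5795713-5795772, minus strand, base 6900 onward of NR_002847: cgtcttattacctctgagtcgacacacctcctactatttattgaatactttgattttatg
*Meg3* middle probe, A_52_P196568, chr12:110799558-110799617, plus strand, NR_003633: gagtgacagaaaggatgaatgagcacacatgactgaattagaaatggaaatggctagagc
*Meg3* 3′ probe, A_51_P455997, chr12:110809678-110809737, plus strand, NR_027652: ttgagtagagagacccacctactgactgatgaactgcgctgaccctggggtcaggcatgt
*Gas5* 5′ probe, A_51_P130544, chr1:162966369-162966428, plus strand, BC004622: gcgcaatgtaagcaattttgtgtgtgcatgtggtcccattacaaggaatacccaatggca
*Gas5* middle probe, A_55_P2178378, chr1:162967350-162967409, plus strand, BC080708: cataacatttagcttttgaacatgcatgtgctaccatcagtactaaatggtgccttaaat
*Gas5* 3′ probe, A_66_P134809, chr1:162968608-162968667, plus strand, NR_153812: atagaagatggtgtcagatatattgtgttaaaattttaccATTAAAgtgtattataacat
*H19*, A_55_P1961127, chr7:149761492-149761551, minus strand, NR_130973: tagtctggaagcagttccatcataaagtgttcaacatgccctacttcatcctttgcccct
The names 5′, middle and 3′ follow the order of the probes along each gene. The 5′ and middle probes of *Gas5* were designed on cDNA records and carry no RefSeq accession in the files, whereas the 3′ probe is listed with 4 of them. The 5′ probe starts at base 142 of its record, the middle probe at base 1299 and the 3′ probe at base 688. The middle probe thus lies deeper in its record than the 3′ probe does, although it comes first along the gene. Whether the 3 probes read the same spliced RNA was not tested. The 3′ probe of *Gas5* holds ATTAAA near its end and, at 23.3% G and C, is the poorest of the 9 in these bases, the 3′ probe of *Meg3* at 55.0% the richest. The *Neat1* probe lies in the stretch that the short and the long form of this RNA have in common, so that both are read together.

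Of the 9 probes, 5 rose after OGD and 0 fell on the 75th-percentile scale, whereas 0 rose and 1 fell when arrays were scaled on spiked-in control RNA, where 4.47% of all probes rose and 81.9% fell (limma, Benjamini–Hochberg adjusted p under 0.05 over 28258 probes). Over all probes tested 65.0% passed, 37.9% upward and 27.1% downward, so that a call by itself is common on these arrays. The probes that rose were the 5′ and middle probes of *Meg3*, the middle and 3′ probes of *Gas5*, and *H19*. Without untreated replicate 1, 2 of these calls were left (the 3′ probe of *Gas5* and *H19*), and without untreated replicate 2 only the 3′ probe of *Gas5*, while the share of all probes that rose went to 22.6% and 19.5%. In the middle of the 9 stood a log2 fold change of 0.87, against a median of 0.18 for every probe tested. No probe changed by the factor of 10 that the methods set as their limit, which 0.81% of all probes exceeded upward and 0.524% downward. In whole-culture RNA, fewer cells of a type and less RNA per cell cannot be told apart.

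**Figure D1:**
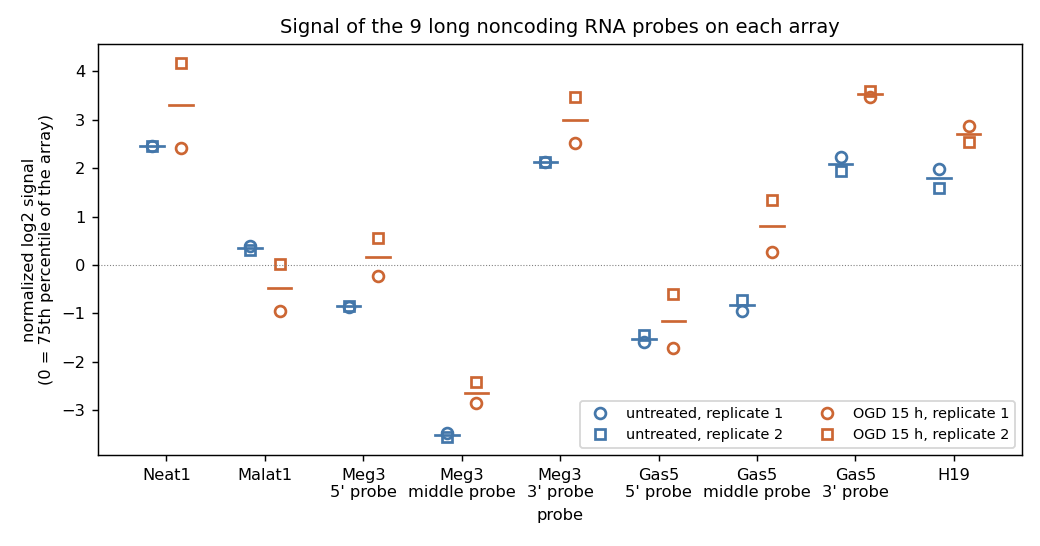
Normalized log2 signal (vertical axis, 0 is the array's 75th percentile) of the 9 probes (horizontal axis) on the untreated arrays (blue) and after 15 h of OGD (orange), with circles for replicate 1, squares for replicate 2 and bars for group means (n = 2). The untreated arrays lie close together, whereas *Neat1* is at 2.42 on OGD replicate 1 and 4.17 on OGD replicate 2.

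*Neat1* showed the widest spread of the RNAs after OGD. Untreated replicates gave processed signals of 11778 and 11868, and OGD replicates 1 and 2 gave 4747 and 14024. On the normalized log2 scale these are 2.46 and 2.46 against 2.42 and 4.17, so that OGD replicate 1 stood just below both untreated arrays and OGD replicate 2 far above them. The log2 fold change was 0.84 (SE, standard error, 0.64, adjusted p = 0.307 in limma), and the groups overlapped. Without OGD replicate 2 it was −0.04, and without OGD replicate 1 it was 1.72. The replicates after OGD differed by 1.75, a size that 0.425% of all probes exceeded.

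*Malat1*, encoded next to *Neat1* on the same strand, had lower values after OGD. In processed signal it read 2786 and 2680 without treatment and 456 and 785 with OGD. Relative to each array the log2 signal was 0.38 and 0.31 against −0.96 and 0.017, and the groups did not overlap, which was so for 7 of the 9 probes and for 84.7% of all probes. The log2 fold change of −0.82 (SE 0.36) did not pass the adjusted p in limma (0.118). It was −0.33 without OGD replicate 1 and −1.30 without OGD replicate 2, fits in which the spread comes from the untreated pair alone and which are given for their size only. It passed under normexp background correction (−0.82, adjusted p = 0.0258 in limma) and under scaling on the spiked-in controls (−2.11, adjusted p = 0.00228 in limma).

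The position of the *Malat1* probe bears on what was read. The stable nuclear *Malat1* RNA ends where RNase P cuts it, upstream of mascRNA, the tRNA-like small RNA that is released from its 3′ end. In the RefSeq annotation of GRCm38.p6, mascRNA takes up bases 6692 to 6749 of the 6983 bases of *Malat1*. The probe reads bases 6900 to 6959 of the transcript record, that is, it starts 150 bases past mascRNA and ends 24 bases before the end of the gene. By this annotation the probe lies outside the mature RNA and reads *Malat1* transcripts that extend past this cut, and the mature form has no probe of its own under this name.

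A difference of probes within an array does not depend on a scaling that moves all probes of that array by the same log2 amount. Quantile normalization and normexp are not of this kind and can change it. With quantile normalization the log2 fold change of *Neat1* was 0.49, against 0.84 without it, and that of *Malat1* stayed at −0.82. That of *H19* was 0.67 against 0.91. The differences given here were taken without quantile normalization or normexp. The log2 signal of *Neat1* minus that of *Malat1*, whose level depends on the probes and is read only for its change, was 2.08 and 2.15 without treatment and 3.38 and 4.16 with OGD. Both OGD arrays lay above both untreated arrays, and the difference grew by 1.66. The groups do not overlap for 84.7% of all single probes, and the share for differences between genes was not counted. *H19* minus *Malat1* grew by as much, 1.73, from 1.60 and 1.28 to 3.82 and 2.51. *Neat1* minus *H19* was 0.48 and 0.86 without treatment and −0.44 and 1.65 with OGD, and its OGD values lay on either side of the untreated ones. With 2 arrays per group an exact permutation test cannot go below a two-sided p of 0.333.

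The 3 probes of *Meg3* gave log2 fold changes between 0.86 and 1.02. The 5′ probe read 1167 and 1209 without treatment and 758 and 1147 with OGD in processed signal. Relative to each array this is an increase from −0.86 ± 0.023 to 0.17 ± 0.56 (SD, n = 2), or 2.03-fold (log2 fold change 1.02, SE 0.29, adjusted p = 0.0427 in limma). This call was lost without untreated replicate 1 or 2 (adjusted p = 0.150 in limma both times), with no filter (0.0619), with detected-probe scaling (0.0684) and with the methods' t-test, and the log2 fold change was 0.63 without OGD replicate 2. The middle probe was dimmer, with 192 and 186 against 123 and 146. It was also higher after OGD, 1.83-fold (log2 fold change 0.87, SE 0.18, adjusted p = 0.0167 in limma), a call likewise lost without untreated replicate 1 (adjusted p = 0.0799 in limma) or 2 (0.0972) and with the methods' t-test. The 3′ probe was the brightest, with 9346 and 9459 against 5051 and 8572. It had a similar log2 fold change, 0.86, with a larger standard error of 0.35, and did not pass (adjusted p = 0.101 in limma). It was 1.34 without OGD replicate 1 and 0.38 without OGD replicate 2, and it passed with normexp (adjusted p = 0.0173 in limma) and median scaling (adjusted p = 0.0468 in limma). At each of the 3 probes both OGD values lay above both untreated values on the normalized scale, and OGD replicate 2 was the higher, by 0.79, 0.44 and 0.95. With the spiked-in controls as the scale all 3 turned negative, at −0.26, −0.42 and −0.43, and none passed.

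The 3 probes of *Gas5* lie within 2.24 kb, were designed on different records that may not stand for the same RNA, and did not move alike. The 3′ probe had processed signals of 10075 and 8336 without treatment and 9750 and 9388 with OGD, and its normalized log2 signal went from 2.09 ± 0.21 to 3.53 ± 0.097 (SD, n = 2). This is 2.70-fold, with a log2 fold change of 1.44 and the smallest standard error of the 9 probes, 0.14 (adjusted p = 0.00265 in limma). Its unscaled signal was thus nearly level, at a log2 difference of 0.062, while the 75th percentile fell. The middle probe, with 1106 and 1317 against 1070 and 1954, was 3.10-fold higher (log2 fold change 1.63, SE 0.40, adjusted p = 0.0275 in limma). It did not pass without untreated replicate 1 (adjusted p = 0.119 in limma) or 2 (0.0989) or with the methods' t-test. The 5′ probe, with 711 and 793 against 271 and 516, had normalized log2 signals of −1.59 and −1.45 against −1.71 and −0.59. Its OGD replicates stood on either side of the untreated arrays, and its log2 fold change of 0.37 (SE 0.41) did not pass (adjusted p = 0.474 in limma), with −0.19 when OGD replicate 2 was left out. On the spiked-in scale the middle and 3′ probes stayed above 0, at 0.35 and 0.15, but neither passed, and the 5′ probe was at −0.92.

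Probes of the same gene were compared through their log2 difference on each array, in a limma fit over 7734 pairs of probes from 4856 genes. Quantile normalization, which can change such a difference, was not run for these pairs. In *Gas5* the 5′ probe minus the middle probe was −0.64 and −0.73 without treatment and −1.98 and −1.92 with OGD. The replicates lay close together in both groups, and the change of −1.27 (SE 0.11) passed (adjusted p = 0.00104 in limma), as did 48.3% of all pairs. It ranged from −1.31 to −1.22 and passed in all 8 alternatives run for it. The 5′ probe minus the 3′ probe changed by −1.07 (SE 0.37), which did not pass (adjusted p = 0.0692 in limma), though it did with the replicate number as a block (adjusted p = 0.0151 in limma) and with normexp (adjusted p = 0.0259 in limma). With 1 array left out it ranged from −1.56 (without OGD replicate 2) to −0.57 (without OGD replicate 1), given for its size only. The middle and 3′ probes differed in their change by 0.20 (SE 0.36, adjusted p = 0.684 in limma). In *Meg3* the 3 pairs differed by −0.014 (SE 0.20), −0.17 (SE 0.12) and −0.15 (SE 0.16), with adjusted p of 0.962, 0.293 and 0.466 in limma.

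**Figure D2:**
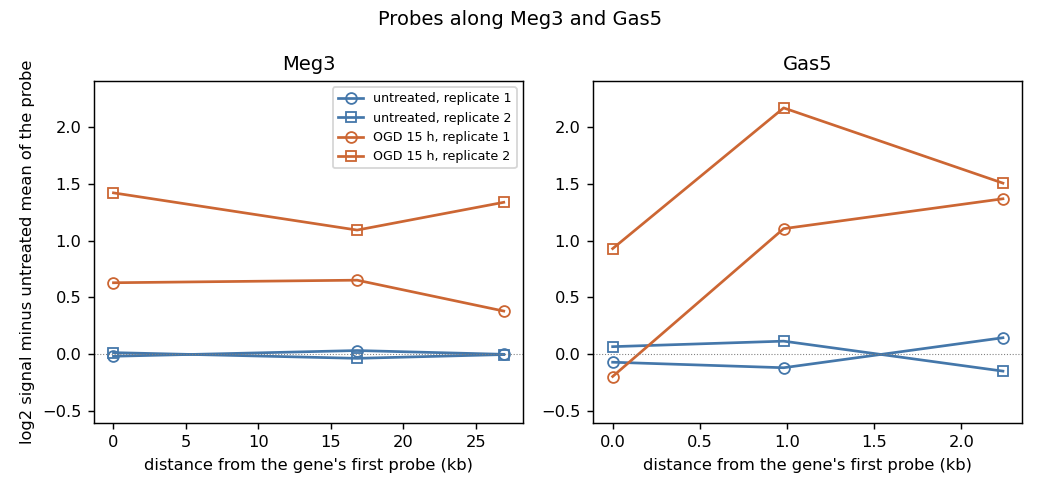
Log2 signal of each probe minus its mean in untreated cultures (vertical axis) against the distance from the gene's first probe in kb (horizontal axis), for *Meg3* and *Gas5*, with a line for each array. In *Gas5* the first probe lies below the second on both OGD arrays, the pair whose change differed by −1.27, while the lines of *Meg3* stay about level within an array.

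The single probe of *H19* read 8434 and 6523 without treatment and 6445 and 4480 with OGD in processed signal. On the normalized log2 scale these are 1.98 and 1.59 against 2.86 and 2.53, without overlap. The increase was 1.88-fold (log2 fold change 0.91, SE 0.20, adjusted p = 0.0207 in limma), and turned to −0.38 on the spiked-in scale. It did not pass without untreated replicate 2 (0.71, adjusted p = 0.0935 in limma) or without OGD replicate 1 (0.74, adjusted p = 0.0582 in limma), nor with the methods' t-test. *H19* was the exception among the RNAs in that OGD replicate 1 was the higher one, by 0.33, and its untreated replicates differed by 0.39 in the same direction.

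The spiked-in scale turned the sign of 6 of the 9 probes. Each sample started from 200 ng of total RNA, so that this scale is per amount of total RNA and not per cell. The spiked-in control RNAs, added in fixed amounts and read by 9 usable probes, averaged 3940 and 3780 without treatment and 3830 and 3457 with OGD in signal. With them as the scale the median log2 fold change of all probes went from 0.18 to −1.11 and *Neat1* was at −0.45. *Malat1* was the 1 probe of the 9 that fell. This scaling moves every fold change by the same amount, so that their order is that of the 75th-percentile scale. With quantile normalization 5 of the 9 rose and 0 fell, against 30.7% and 29.7% of all probes, and the sign of all 9 was kept, with *Neat1* at 0.49, the 3′ probe of *Meg3* at 0.57 and *H19* at 0.67.

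**Figure D3:**
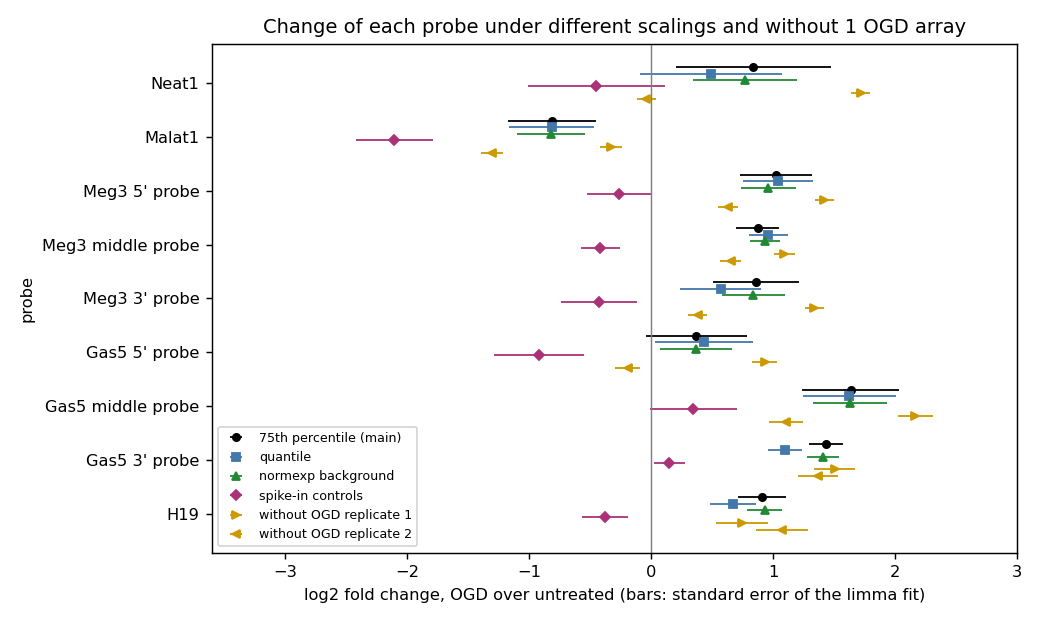
Log2 fold change of each probe (horizontal axis, OGD over untreated, bars are standard errors of the limma fit) with the 75th percentile, quantile, normexp and spiked-in control settings and without OGD replicate 1 or 2 (right- and left-pointing triangles). The spiked-in controls put every probe but the middle and 3′ probes of *Gas5* below 0, and *Neat1* runs from −0.04 to 1.72 between the triangles.

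The OGD replicates differed more than the untreated ones at 7 of the 9 probes, and the standard deviation of the difference over all probes was likewise larger, 0.40 against 0.22. The exceptions were *H19* (0.33 against 0.39) and the 3′ probe of *Gas5* (0.14 against 0.29). OGD replicate 2 was above OGD replicate 1 at 8 of the 9 probes, against 53.1% of all probes, and over all probes the difference had a median of 0.017. It was 0.98 for *Malat1*, and 1.12 and 1.06 for the 5′ and middle probes of *Gas5*, sizes that 3.81%, 2.58% and 3.03% of all probes exceeded. The untreated replicates differed by at most 0.39 at any of the 9 probes. Among other long noncoding RNAs of a list given below, 19 of 26 were likewise higher on OGD replicate 2, with a median difference of 0.18, and among snoRNA host genes 8 of 15, with a median of 0.013.

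The genes that encode the core proteins of paraspeckles did not move as a group. *Sfpq*, which with *Nono* forms the heterodimer that binds *Neat1*, fell by 1.80 on the log2 scale, with processed signals of 13480 and 13274 against 1661 and 1330 (SE 0.089, adjusted p = 0.000935 in limma). *Rbm14*, which is needed to assemble the body, fell by 0.75 (SE 0.076, adjusted p = 0.00301 in limma). *Nono* was at 0.34 (SE 0.12, adjusted p = 0.0750 in limma), turning to −0.30 under quantile normalization and −0.95 on the spiked-in scale, and *Pspc1* at −0.17 (SE 0.11, adjusted p = 0.259 in limma). Of 36 paraspeckle protein genes tested, each by its brightest probe, 15 rose and 12 fell, against 37.1% and 27.8% of all 21064 genes (64.9% in either direction). Their median log2 fold change was 0.23, against 0.16 over all genes, and the spiked-in scale left 1 higher and 30 lower, where 3.84% of all genes rose and 83.3% fell. Without untreated replicate 1 or 2, which left 21.9% or 18.4% of all genes higher and 17% or 16.8% lower, 9 or 8 of the list rose and 8 or 7 fell. The largest increases were those of *Fip1l1*, a 3′ end processing factor (1.58), and *Dazap1*, an RNA-binding protein (1.48), and *Zc3h6* (−1.63) fell most after *Sfpq*. The value of *Zc3h6* was −1.02 without OGD replicate 2, and its call was lost without untreated replicate 1 or 2.

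Of 33 nuclear speckle protein genes tested, 22 rose and 5 fell, against the 37.1% and 27.8% of all genes, with a median log2 fold change of 0.64. With quantile normalization 15 rose and 9 fell, against 28.4% and 31.1% of all genes. On the spiked-in scale 2 rose and 23 fell, against 3.84% and 83.3% of all genes. Without untreated replicate 1 or 2 fewer genes of the list passed in either direction, as was so for all genes. *Luc7l*, a U1 snRNP-associated splicing factor, went from 1593 and 1580 to 5277 and 4120 in processed signal (log2 fold change 2.93, SE 0.096, adjusted p = 0.000729 in limma). *Ccnl1*, a cyclin found in nuclear speckles, rose by 2.63 on the log2 scale. *Thoc1*, a subunit of the mRNA export complex THO, fell by 2.08, and *Acin1* fell by 1.36, a call lost without untreated replicate 1.

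*Gas5* is an snoRNA host gene, and of 15 other host genes tested 6 rose, 1 fell and 8 did not pass, with a median log2 fold change of 0.57. The share that rose, 40.0%, is near the 37.1% of all genes, while 27.8% of all genes fell. On the spiked-in scale 3 rose and 8 fell, against 3.84% and 83.3% of all genes. The largest increase was that of *Snhg17*, from 233 and 234 to 790 and 824 in processed signal, which is 8.95-fold (log2 fold change 3.16, SE 0.12, adjusted p = 0.000753 in limma). *Snhg12* was 5.43-fold higher (1710 and 1703 against 4103 and 3118). *Snhg7* fell by 1.36 on the log2 scale.

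Of 21 genes of nonsense-mediated decay tested, the pathway that removes spliced *Gas5* RNA, 12 fell and 8 rose, against 27.8% and 37.1% of all genes, with a median log2 fold change of −0.68, the lowest of the lists described here. Fewer passed in either direction without untreated replicate 1 or 2, as was so for all genes. With the methods' t-test after adjustment 8 fell, where 12680 probes in all were called against 18355 in limma. On the spiked-in scale 20 fell, as did 83.3% of all genes. *Upf1*, the central helicase of the pathway, had processed signals of 2335 and 2395 against 316 and 384, and fell by 1.39 on the log2 scale (SE 0.19, adjusted p = 0.00572 in limma). The largest decreases were those of *Pnrc2* (−1.86), which links *Upf1* to decapping, and *Upf3b* (−1.66). The members that rose most were *Etf1*, a translation release factor, at 1.25, and *Magoh*, an exon junction protein, at 0.88, which lay at −0.04 and −0.41 on the spiked-in scale.

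**Figure D4:**
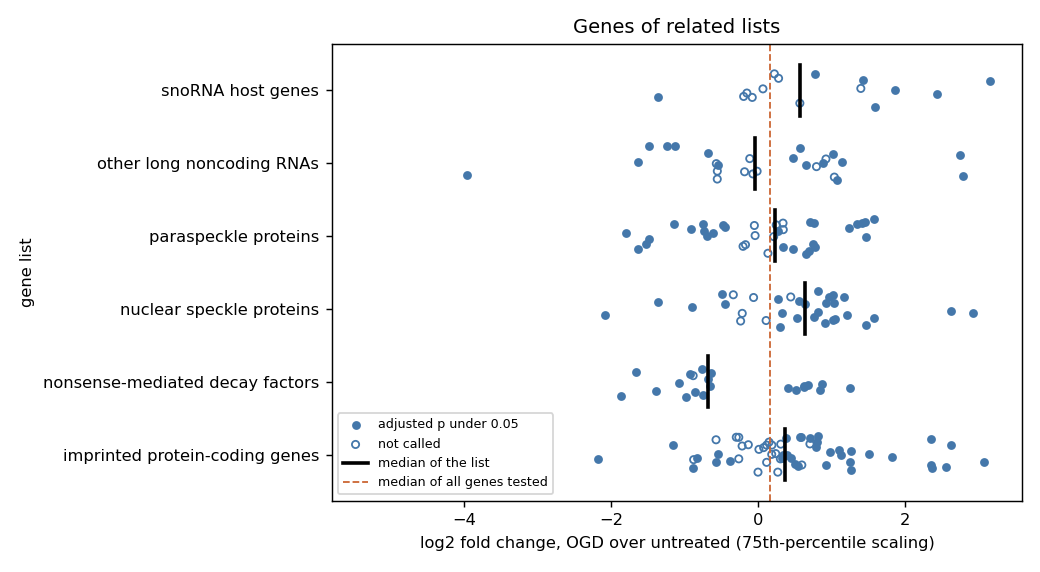
Log2 fold change (horizontal axis, OGD over untreated, 75th-percentile scale) of the genes of 6 lists (vertical axis), each by its brightest probe, filled where the adjusted p passed, with the median of the list (black) and of all genes (dashed, 0.16). The median was highest for nuclear speckle proteins (0.64) and lowest for nonsense-mediated decay factors (−0.68), and with the spiked-in controls as the scale the median of every list lay below 0.

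Around *Meg3*, *Dlk1*, which encodes a Notch-like growth regulator and is expressed from the paternal chromosome, rose far more than *Meg3*. Its brightest probe went from 17296 and 18312 to 40389 and 45074 in processed signal, which is 6.21-fold (log2 fold change 2.63, SE 0.15, adjusted p = 0.00109 in limma), and its other probe had a log2 fold change of 2.86. *Mirg*, a maternal noncoding RNA and miRNA host downstream of *Meg3*, was at 985 and 1023 against 736 and 834, which is 2.02-fold higher (log2 fold change 1.02, SE 0.15, adjusted p = 0.00763 in limma) and −0.27 on the spiked-in scale, and did not pass without untreated replicate 1 or 2. No probe carried the name *Rian*. Of 5 probes of other genes tested within 100 kb of the *Meg3* probes 3 rose and 0 fell, where 37.9% of all probes rose and 27.1% fell, among them both probes of *Dlk1*, the nearer 84.0 kb away. The nearest tested gene on the other side, *6430411K18Rik*, was at 0.76 (SE 0.34, adjusted p = 0.122 in limma).

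Around *H19*, *Igf2* was dim, with processed signals of 127 and 112 against 107 and 78.1, and higher by a log2 fold change of 0.99 (SE 0.14, adjusted p = 0.00661 in limma). *Nctc1*, a noncoding RNA on the other side, 21.8 kb away, rose by 0.85 (SE 0.077, adjusted p = 0.00238 in limma). Both turned negative on the spiked-in scale, at −0.30 and −0.44, and *Igf2* did not pass without untreated replicate 2. Within 100 kb of the *H19* probe 6 of 9 tested probes rose and 0 fell, against 37.9% and 27.1% of all probes, and 2 genes account for 4 of the 6.

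Within 100 kb of the *Gas5* probes 8 of 10 tested probes fell and 1 rose, against 27.1% and 37.9% of all probes. The 10 probes belong to 6 genes, among them *Zbtb37* with 3. Of these, *Zbtb37* fell by 0.36 at its nearest probe (SE 0.076, adjusted p = 0.0191 in limma), but was at 0.54 under normexp and did not pass without untreated replicate 1 or 2. Around *Neat1* 4 of 9 probes rose and 4 fell, and around *Malat1* 5 of 14 rose and 7 fell. The nearest coding gene upstream of *Neat1*, *Frmd8*, had processed signals of 42331 and 44534 against 8029 and 7375 and fell by 1.12 on the log2 scale (SE 0.080, adjusted p = 0.00156 in limma).

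**Figure D5:**
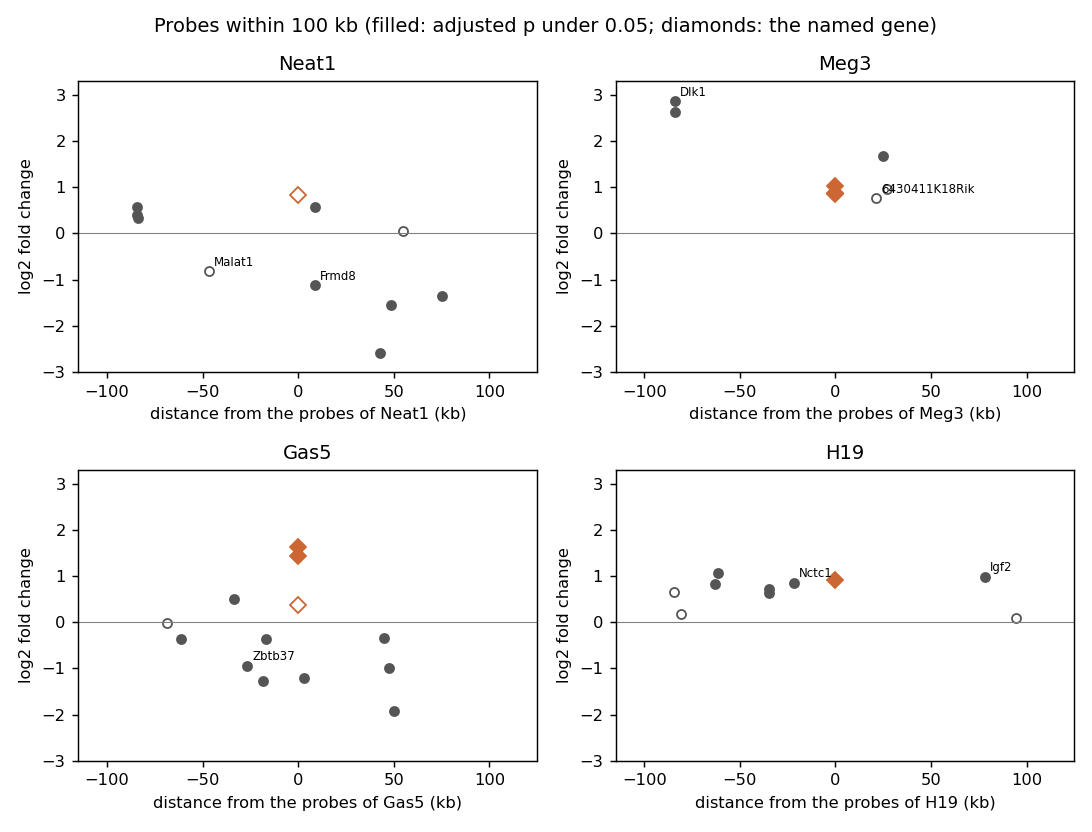
Log2 fold change (vertical axis, OGD over untreated) of tested probes within 100 kb of the *Neat1*, *Meg3*, *Gas5* and *H19* probes against their distance in kb (horizontal axis), filled where the adjusted p passed, with diamonds for the named RNA itself and gene names beside the neighbors described here. *Dlk1*, at 2.86 and 2.63, lies above *Meg3*, and 8 of the 10 probes around *Gas5* lie below 0 with an adjusted p that passed.

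Of 56 imprinted protein-coding genes tested, 28 rose and 7 fell, against 37.1% and 27.8% of all genes, with a median log2 fold change of 0.37. Fewer of them passed in either direction without untreated replicate 1 or 2, as was so for all genes. On the spiked-in scale 7 rose and 39 fell, against 3.84% and 83.3% of all genes. *Htr2a*, a serotonin receptor gene, and *Dlk1* rose most, by 3.07 and 2.63 on the log2 scale. *Mkrn3*, which encodes a ubiquitin ligase, fell by 2.17 and *Zrsr1*, a splicing factor gene, fell by 1.15. Of 26 other long noncoding RNAs tested 9 rose and 7 fell, shares of 34.6% and 26.9% that are near those of all genes, with a median of −0.04. With normexp 16 rose and 4 fell, a setting in which the median log2 fold change of all probes was 0.55. Fewer of these RNAs passed in either direction without untreated replicate 1 or 2, as was so for all genes. On the spiked-in scale 2 rose and 18 fell, against 3.84% and 83.3% of all genes. *Ftx*, from the X-inactivation center, rose 6.92-fold and *Pvt1*, the neighbor of *Myc*, 6.71-fold. *Sox2ot*, whose gene surrounds *Sox2*, went from 591 and 552 to 15.2 and 13.3 in processed signal and fell by 3.96 on the log2 scale, and *Six3os1* fell by 1.48.

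The cell types of the cultures were followed by lists of marker genes. The 15 astrocyte markers were well above background on all 4 arrays, among them *Gfap*, *Aqp4* and *Aldh1l1*. Their summed signal, relative to the 75th percentile, was 259 to 298 without treatment and 435 to 442 with OGD, and 9 rose and 2 fell, where 37.1% of all genes rose and 27.8% fell. The median of their log2 fold changes was 0.70. With quantile normalization 4 rose and 4 fell, against 28.4% and 31.1% of all genes. For fibroblast and meningeal markers it was 223 to 260 against 390 to 426, with 6 of 16 higher and 4 lower, a median of −0.047, and 2 higher and 5 lower with quantile normalization. Oligodendrocyte lineage markers had 38.6 to 41.0 against 47.9 to 49.1 (6 of 15 higher, 4 lower, median 0.30) and neuron markers 30.4 to 32.5 against 33.5 to 36.7 (7 of 15 higher, 3 lower, median 0.30). Microglia markers had 5.02 to 5.41 against 11.6 to 11.8, with 5 of 13 higher and 2 lower and a median of 0.36, below the largest log2 fold change, 3.14 for *Cd68*, and *Cx3cr1*, *Ptprc* and *C1qc* were not well above background on either OGD array. The shares of the fibroblast, oligodendrocyte and microglia lists that rose are near that of all genes, and the sums depend on the probes and are read only between groups. Without untreated replicate 1 or 2 fewer markers of astrocytes, of fibroblasts and meninges, and of neurons rose, as was so for all genes. On the spiked-in scale 0 astrocyte markers rose and 12 fell, where 83.3% of all genes fell. The part that changes in these markers have in the values of the long noncoding RNAs was not tested.

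The genes whose pattern over the 4 arrays was most like each RNA were found by the root mean square difference of the mean-centered log2 signal of its brightest probe. For *Neat1*, *Gm14762* lay at 0.19, and 8 probes in all lay within 0.2. *Malat1* was followed most closely by *1700066B19Rik* (0.057) and *Dut* (0.059), and the 3′ probe of *Meg3* by *Cyp2d22* and *Firre*, itself a nuclear long noncoding RNA, both at 0.061. For the 3′ probe of *Gas5* these were *Deup1* (0.015) and a second probe of *Fip1l1* (0.029), and for *H19* they were *Cfhr2* (0.042) and *Arhgap15* (0.048). The number of probes within 0.2 was 104 for *Malat1*, 281 for *Meg3*, 1620 for *Gas5* and 2368 for *H19*, so that the pattern of *Neat1* was shared by few probes and that of *H19* by many. This likeness is over 4 arrays only and is given as a description.

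RefSeq promoters of GRCm38.p6, 300 bases around each start, were read for the RNAs that have an entry, which are *Gas5*, *Meg3* and *Malat1* among those with values. The letters searched on both strands were ACGTG and GCGTG, cores of the site of hypoxia-inducible factors, and TGACGTCA, the full cyclic AMP response element, and none of the 3 overlaps another in these promoters. *Gas5* and *Meg3* have 2 entries each, and for each gene the entry that holds TGACGTCA, as 1.79% of 32851 promoters do, is shown with the motifs in capitals, while the other entry holds none of the 3 motifs.
*Gas5*, chr1:161034916-161035215, plus strand: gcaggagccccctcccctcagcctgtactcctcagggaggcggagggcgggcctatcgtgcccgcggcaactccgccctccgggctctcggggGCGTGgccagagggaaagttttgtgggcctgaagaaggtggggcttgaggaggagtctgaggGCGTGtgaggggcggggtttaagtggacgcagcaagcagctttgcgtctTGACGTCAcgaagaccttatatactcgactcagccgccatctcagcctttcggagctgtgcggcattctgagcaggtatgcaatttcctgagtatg
*Meg3*, chr12:109540746-109541045, plus strand: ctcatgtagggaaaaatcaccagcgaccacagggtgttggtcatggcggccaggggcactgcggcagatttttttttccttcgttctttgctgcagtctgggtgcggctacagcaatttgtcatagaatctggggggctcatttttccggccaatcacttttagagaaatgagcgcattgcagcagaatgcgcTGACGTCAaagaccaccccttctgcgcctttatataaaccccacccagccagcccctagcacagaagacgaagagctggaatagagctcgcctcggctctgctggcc
The *Gas5* promoter also holds GCGTG at 2 places, as 32.4% of promoters hold it at least once, and the transcript begins CTTTCGGAGCTG, with the run of pyrimidines named above. The *Malat1* promoter holds ACGTG once, as do 19.6% of promoters. These matches describe the letters in the windows and no binding was measured.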

How the data were processed

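The RNA samples, 2 from untreated AECs and 2 from AECs under 15 h of OGD, were each hybridized to a Mouse Gene Expression 4 × 44K v2 array, after 200 ng of total RNA had been amplified and labeled with Cy3. The authors deposited the processed signal of Agilent Feature Extraction (11.5.1.1 in the submitters' processing notes), an intensity per spot from which background had been subtracted within the array, with no normalization between arrays; the series table repeats these values. Gene names, accessions and mm9 positions are those of the files.

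Control spots and outlier spots were left out, log2 was taken, spots of the same probe were averaged and each array's 75th percentile was subtracted, as in the methods. A probe was kept if untreated arrays, OGD arrays or both were all marked well above background, which left 28258 of 39429, and lmFit and eBayes of limma 3.58.1 (R 4.3.3) were run with Benjamini–Hochberg adjustment over them. Where 1 value stands for a gene, it is that of its brightest probe. The limits of precision are set by 2 arrays per group. The steps were tested on simulated data. Python 3.11.15 with numpy 2.4.6, pandas 2.3.3 and matplotlib 3.10.9 made the tables and plots.

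The RNAs, gene lists and alternatives were chosen with earlier results of these data known. Genes named are the core paraspeckle proteins, *Rian*, *Mirg*, *Igf2*, *Dlk1*, *Upf1*, the 2 largest changes in each direction of each list among genes past the test and well above background on all arrays, the nearest tested neighbors within 100 kb, the 2 genes nearest in pattern, and marker genes; some genes that this rule names and the sequence of 1 probe are not reported here. The alternatives were the methods' t-test with and without adjustment, a limma prior with trend and robust fit, a block for the replicate number, normexp (offset 50), quantile, median and detected-probe scaling, spiked-in controls (9 of 10 probes), no filter, a strict filter (well above background on all 4 arrays), outlier spots kept, the series table, and each array left out. Replicates 1 and 2 of the groups deviated with a correlation of −0.057 over probes, and the numbers were not taken as pairs. *Miat* had no probe and was not analysed here.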

Additional observations from a re-analysis of the deposited data

How the results depend on the processing

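The count of probes with an adjusted p under 0.05 was 18355 and ranged from 10264 to 19190 when 1 array was left out. Among the 9 long noncoding RNA probes, 5 rose, against 1 to 7 without 1 array, 1 with the methods' t-test before and after adjustment, 4 with no filter or with detected-probe scaling, 6 with normexp or median scaling and 0 on the spiked-in scale. The count that fell was 0, against 1 (*Malat1*) with normexp and on the spiked-in scale and 0 to 1 without 1 array. Without untreated replicate 1 or 2, where the lone untreated array is assumed to vary like the OGD arrays (and a lone OGD array like the untreated ones, which lay closer together), the 3′ probe of *Gas5* passed both times, at 1.58 and 1.29. It passed in every setting but the spiked-in scale. Pairs of probes called different were 3738, and 2174 to 4480 without 1 array. Under the replicate block 17206 probes, 5 of the 9 and 3634 pairs passed. The replicate numbers were not taken as a pairing, and the block changed no call of the 9 probes.

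Reversals were mostly those of the spiked-in scale. They were *Neat1* −0.45, *Meg3* −0.26, −0.42 and −0.43, the 5′ probe of *Gas5* −0.92, *H19* −0.38, *Nono* −0.95, *Mirg* −0.27, *Igf2* −0.30, *Etf1* −0.036, *Magoh* −0.41, *Nctc1* −0.44, *6430411K18Rik* −0.53, *Gm14762* −0.78, *Cyp2d22* −0.47, *Firre* −0.49, *Cfhr2* −0.42 and *Arhgap15* −0.42. Under quantile normalization *Nono* was at −0.30, and under normexp *Zbtb37* was at 0.54 and *Dut* at 0.50. Without 1 array *Neat1* ranged from −0.039 to 1.72, the 5′ probe of *Gas5* from −0.19 to 0.93 and *Gm14762* from −0.26 to 1.27. The differences between probes ranged from −0.26 to 0.66 (*Gas5*, middle minus 3′), from −0.27 to 0.24 (*Meg3*, 3′ minus middle) and from −0.33 to 0.023 (*Meg3*, middle minus 5′). The cause was not tested for any of these.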
